A study of Mus musculus with 18 samples.

Results

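The MHC class II pathway genes are described here across 3 tissues and 3 genotypes of mice with inducible histone H3 mutations. They are 10 genes, H2-Aa, H2-Ab1, H2-Eb1, Cd74, Ciita, H2-DMa, H2-DMb1, H2-DMb2, H2-Oa and H2-Ob, chosen by symbol as the known core of the pathway, out of 37620 gene IDs in each count file. All 10 were found. Polyadenylated RNA was sequenced from Lin- cKit+ bone marrow cells (blood stem and progenitor cells) and from dissociated cells of intestine and of testes. In each tissue the groups were wildtype (WT), K9M and K36M, the last 2 named for replacement of lysine 9 or lysine 36 of histone H3 by methionine, with 2 mice per group and 18 libraries in all. Mice of every group, WT included, were C57B6/129 hybrids of 6 to 8 weeks that drank 2 mg/ml doxycycline. The same 6 mice gave intestine and testes, and 6 others gave bone marrow. Mice of both sexes were used. The 6 mice that gave testes were male, and the sex of each bone marrow mouse is not given. The promoter and locus of the transgene, and whether the WT mice carried one, are not given in the sources used here.

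A class II molecule is a pair of an alpha and a beta chain (H2-Aa with H2-Ab1 for I-A, H2-Eb1 for the beta chain of I-E) that carries peptides from endosomes to the cell surface for CD4+ T cells. Cd74, the invariant chain, blocks the groove and guides new pairs to endosomes. H2-DM (H2-DMa with H2-DMb1 or H2-DMb2) then swaps the last fragment of Cd74 for peptide, and H2-DO (H2-Oa with H2-Ob) holds H2-DM back. Ciita is the transactivator that sets transcription of the class II genes. It binds no DNA itself and works through the RFX, CREB and NF-Y factors seated on the X and Y boxes of class II promoters. Professional antigen-presenting cells (dendritic cells, B cells, macrophages) express the pathway constitutively, and interferon gamma induces Ciita in other cells, among them the intestinal epithelium.

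RefSeq's promoter table (GRCm38.p6) held 8 promoters of 7 of the 10 genes, each of 250 bases before the start site and 50 after it. The end of the X box, ACNGATG, and the inverted CCAAT of the Y box, ATTGG, were searched on both strands. The pair, ATTGG starting within 40 bases after ACNGATG on the same strand, was found for 3 members, H2-Eb1, H2-DMb1 and H2-DMb2. Of all 32851 promoters of this length in the table, 0.298% held the pair, 9.85% held ACNGATG and 37.4% held ATTGG. The 150 bases before the start site are shown for these 3 because the pair sits there with nearly equal spacing (22 bases between the motifs in H2-Eb1, 23 in H2-DMb1 and H2-DMb2), and for H2-Aa because it had the largest fall in K9M marrow. Capitals mark the 2 motifs. In H2-Aa only ATTGG lies in the window shown.
H2-Eb1 (chr17:34305717-34305866, plus strand): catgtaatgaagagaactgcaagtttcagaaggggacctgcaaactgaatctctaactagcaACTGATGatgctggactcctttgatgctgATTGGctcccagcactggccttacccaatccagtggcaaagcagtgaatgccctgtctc
H2-DMb1 (chr17:34153041-34153190, plus strand): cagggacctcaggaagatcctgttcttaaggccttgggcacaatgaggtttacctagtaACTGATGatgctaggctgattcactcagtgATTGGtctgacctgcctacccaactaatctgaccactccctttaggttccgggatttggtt
H2-DMb2 (chr17:34145099-34145248, plus strand): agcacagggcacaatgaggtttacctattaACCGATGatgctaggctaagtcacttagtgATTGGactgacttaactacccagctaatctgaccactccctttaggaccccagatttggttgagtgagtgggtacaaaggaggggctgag
H2-Aa (chr17:34287824-34287973, minus strand): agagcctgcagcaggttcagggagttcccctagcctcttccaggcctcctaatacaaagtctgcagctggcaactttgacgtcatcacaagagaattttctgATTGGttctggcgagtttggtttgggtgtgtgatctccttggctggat
The X box end starts at -88 in H2-Eb1, -91 in H2-DMb1 and -120 in H2-DMb2, counted from the start site. A match describes letters, not a bound site.

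Of the 10 genes, 8 lie on chromosome 17 in the order H2-Oa, H2-DMa, H2-DMb2, H2-DMb1, H2-Ob, H2-Ab1, H2-Aa and H2-Eb1, while Ciita lies on chromosome 16 and Cd74 on chromosome 18. Counts in genes ranged from 13396303 to 21417915 per library. Values are CPM scaled by TMM within a tissue unless said otherwise, with both libraries of a group printed (n = 2), and log2 fold changes carry their SE. The words rise and fall are used of genes for which the quasi-likelihood test of edgeR, fitted to the whole tissue and adjusted by Benjamini-Hochberg over all genes tested, gave an adjusted p below 0.05. The sorted marrow cells carried the stem and progenitor markers (7 genes, Kit, Cd34 and Myb among them, summed to 2964 to 12180 CPM) and intestine the epithelial ones (8 genes, 17680 to 29330 CPM), and testes the 5 male germ cell genes (4636 to 11510 CPM). One library stood apart in the genes described here: intestine WT.1476 had H2-Aa, H2-Ab1, H2-Eb1 and Cd74 summed to 794.5 CPM against 239.7 in WT.1477. It also held germ cell transcripts at 79.5 CPM against 1.94 to 12.2 in the other intestine libraries, and their part in its class II values was not tested. The same class II sum was 10.6 to 22.5 CPM in testes. For the members, the intestine comparisons with WT are therefore given with and without it; the marker and related-gene values in intestine include it. In these mixed tissues fewer expressing cells and less RNA per cell cannot be told apart.

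In WT mice the group means of the 3 classical chain genes, Cd74 and Ciita were highest in intestine, and the peptide editors were highest in bone marrow. On a scale joint to all 18 libraries, H2-Aa stood at 22.2 and 29.2 CPM in marrow, 200.5 and 51.4 in intestine and 5.66 and 4.10 in testes. Cd74 followed the same order, with 43.0 and 60.7 CPM in marrow, 536.8 and 142.4 in intestine and 7.62 and 7.08 in testes. Ciita was at 3.88 and 5.64 CPM in marrow, 22.6 and 2.95 in intestine and 0.231 and 0.225 in testes, so the marrow values lie between the 2 intestine libraries. H2-DMa, the DM alpha chain, went the other way, with 48.1 and 40.7 CPM in marrow against 33.5 and 11.5 in intestine and 6.76 and 6.31 in testes.

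WT marrow against WT intestine gave 5 members lower and 4 higher of 10, where 64.1% of all genes were called (34.8% lower, 29.4% higher). H2-Aa, H2-Ab1, H2-Eb1, Cd74 and Ciita were lower in marrow, by log2 values from -2.91 ± 0.52 (H2-Eb1) to -1.43 ± 0.59 (Ciita). H2-DMa was higher at 0.98 ± 0.34, and H2-DMb1 did not pass at 0.10 ± 0.51. Without WT.1476 the log2 value of H2-Aa was -1.0 ± 0.54 (adjusted p = 0.14) and that of Ciita 0.69 ± 0.39 (adjusted p = 0.161), so neither call held and Ciita changed direction. H2-DMb1 was then higher in marrow, at 1.51 ± 0.48 (adjusted p = 0.0155).

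H2-DMb2, H2-Oa and H2-Ob were marrow genes in these data. H2-Ob, the DO beta chain, had 1082 counts in the 2 WT marrow libraries against 2 counts in WT intestine and 2 in WT testes, ratios of 232 (counting interval 64.1 to 1918) and 375.9 (103.8 to 3108). H2-Oa, the DO alpha chain, had 261 counts in marrow against 2 in intestine, a ratio of 55.96 (15.3 to 464.5), and against 0 in testes, which makes it at least 60.4-fold higher in marrow (floor of 3 counts over the group). H2-DMb2 had 157 counts in marrow against 5 in intestine and 7 in testes, with ratios of 13.5 (5.65 to 42.0) and 15.6 (7.39 to 39.4). These intervals and floors cover counting error only. H2-DMb2 is a close copy of H2-DMb1, and reads shared between them may have been dropped or divided, so the values of both are uncertain.

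All 10 members were higher in WT marrow than in WT testes, where 82.1% of all genes were called (33.6% higher), and 7 were higher in WT intestine than in WT testes, where 81.4% were called. The last 7 are the 2 I-A chains, H2-Eb1, Cd74, Ciita, H2-DMa and H2-DMb1. With the mouse as a replicate block in the 12 libraries of intestine and testes, the count of that comparison was again 7. The median log2 value of all genes moved with the scaling in these contrasts (intestine against testes -0.72 with TMM, -1.06 with relative log expression factors and -1.33 with library size alone). H2-Aa, H2-Ab1, H2-Eb1, Cd74, H2-DMa and H2-DMb1 kept their direction under each scaling. Ciita, H2-DMb2, H2-Oa and H2-Ob, too low to be tested within testes, were not followed across scalings.

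Per kilobase of exon, Cd74 was the most abundant member in WT mice of each tissue, and Ciita was the least abundant of the members tested in marrow and in intestine. In WT marrow Cd74 stood at 33.8 and 47.8 CPM per kilobase, then H2-DMa at 18.4 and 15.6, H2-Ab1 at 11.9 and 16.7, H2-DMb1 at 14.1 and 11.1, H2-Eb1 at 8.78 and 13.8 and H2-Aa at 7.72 and 10.2. From H2-DMa to H2-Aa each gene's 2 libraries overlapped those of its neighbour in this order. H2-Ob (4.58 and 4.76) lay within the range of H2-Oa (4.97 and 3.66), and H2-DMb2 (2.31 and 1.87) and Ciita (0.536 and 0.781) lay below. In WT intestine the classical chains H2-Ab1 and H2-Eb1 (20.5 to 76.0 CPM per kilobase) lay above H2-DMa and H2-DMb1 (2.52 to 9.26), and in WT testes H2-DMa at 1.90 to 2.04 lay just below H2-Ab1 at 2.10 to 2.25. Exon lengths come from another annotation build than the counts.

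In K9M bone marrow the classical chains, the invariant chain and the transactivator fell together, and the DM and DO genes did not pass the test. H2-Aa counts were 625 and 840 in WT and 72 and 72 in K9M, or 29.3 and 38.6 against 4.14 and 3.44 CPM, a log2 fold change of -3.17 ± 0.22 (adjusted p = 6.8e-04). H2-Eb1 went from 17.1 and 26.8 CPM to 3.68 and 2.39 (-2.86 ± 0.38, adjusted p = 0.026). Cd74 went from 56.8 and 80.3 CPM to 13.6 and 9.18 (-2.60 ± 0.25, adjusted p = 0.0112). In each of these genes both K9M libraries lay below both WT libraries, as they did for 22.6% of all tested genes.

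Ciita, on chromosome 16, had 109 and 162 counts in WT and 29 and 29 in K9M marrow, or 5.11 and 7.45 against 1.67 and 1.39 CPM (-2.04 ± 0.29, adjusted p = 0.0195). H2-Ab1, the I-A beta chain, fell least of the 5, from 30.5 and 42.9 CPM to 17.7 and 14.6 (-1.19 ± 0.18, adjusted p = 0.0275). Thus 5 of 10 members fell and none rose, where 1.01% of all 14604 genes tested were called and 0.418% were called lower. The median of the 10 was -0.65 beside -0.00 over all genes. At an adjusted p of 0.01, or in a fit of all 18 libraries, 1 of the 5 calls was left, and it was 2 without K9M mouse 1362 and 1 without K9M mouse 1363.

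None of the 5 DM and DO genes passed the test in K9M marrow, and their log2 values ran from -0.11 to 0.53. H2-DMa was at 63.5 and 53.8 CPM in WT and 57.5 and 62.1 in K9M (0.03 ± 0.10, adjusted p = 0.92). H2-DMb1 was at 23.7 and 18.7 against 18 and 21.1 CPM (-0.11 ± 0.16). H2-DMb2 gave -0.08 ± 0.28 and H2-Oa 0.07 ± 0.27, and for these 4 genes the libraries of the 2 groups overlapped. H2-Ob, the DO beta chain, was at 24.6 and 25.6 CPM in WT and 27.0 and 45.4 in K9M (0.53 ± 0.25, adjusted p = 0.399). Of these 5 genes, 4 lie at the H2-Oa end of the cluster before H2-Ob, and H2-Ob is next to H2-Ab1.

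**Figure D1:**
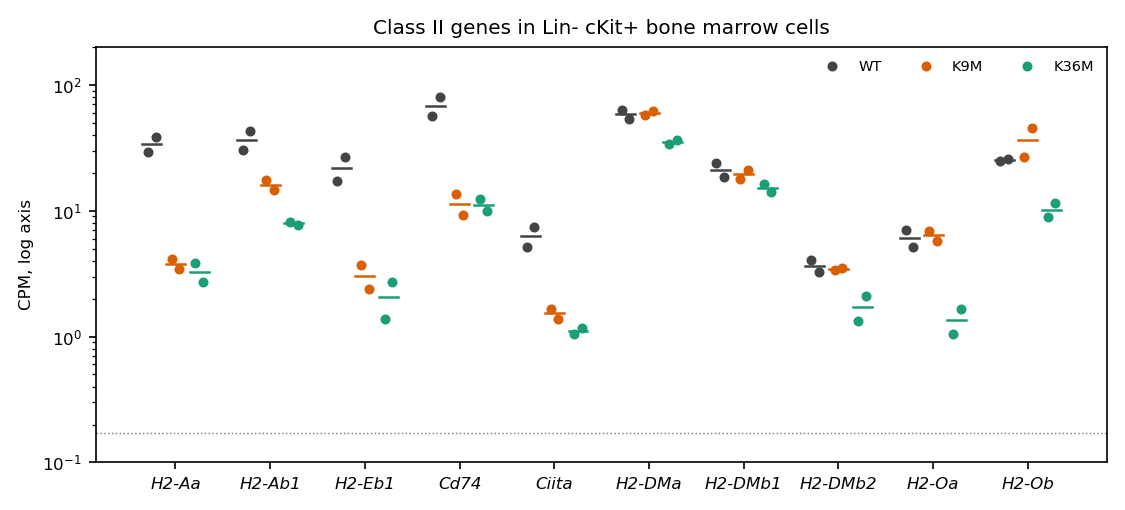
TMM-scaled CPM (log axis) of the 10 class II genes in the 6 bone marrow libraries. Points are libraries (2 per genotype), short bars are group means and the dotted line is the highest 3-count floor of these libraries. From H2-Aa to Ciita both libraries of each mutant lie below both WT libraries, while from H2-DMa to H2-Ob this holds for K36M only.

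In K36M bone marrow the whole pathway was low. All 10 members fell, where 48.0% of all genes were called and 24.6% were called lower, with a median log2 fold change of -2.19 beside -0.02 over all genes. H2-Eb1 was at 1.39 and 2.72 CPM (-3.43 ± 0.39, adjusted p = 7.4e-04) and H2-Aa at 3.82 and 2.72 CPM (-3.37 ± 0.23, adjusted p = 5.3e-05). Cd74 stood at 12.3 and 9.98 CPM (-2.62 ± 0.25), Ciita at 1.04 and 1.16 CPM (-2.51 ± 0.30) and H2-Ab1 at 8.08 and 7.76 CPM (-2.21 ± 0.19). For all 10 members both K36M libraries lay below both WT libraries, an order that 38.7% of all tested genes showed.

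The DM editors and their DO inhibitors were among the genes that fell in K36M marrow. H2-Oa went from 6.99 and 5.15 CPM in WT to 1.04 and 1.66 (-2.17 ± 0.30) and H2-Ob from 24.6 and 25.6 CPM to 8.92 and 11.4 (-1.31 ± 0.26). H2-DMb2 fell by 1.09 ± 0.29 on the log2 scale, and H2-DMa went from 63.5 and 53.8 CPM to 34.2 and 36.7 (-0.73 ± 0.10). H2-DMb1 moved least, from 23.7 and 18.7 CPM to 16.4 and 14.0 (-0.48 ± 0.16, adjusted p = 0.0408), and was called in 6 of 16 alternative settings. Of the 10 members, 9 were called by DESeq2, 9 by limma-voom, 8 at an adjusted p of 0.01, 7 to 10 when single libraries were left out and 6 in a fit of all 18 libraries. The 7 stem and progenitor markers moved with this group as well, with sums of 12180 and 10070 CPM in WT, 11330 and 11350 in K9M and 3411 and 2964 in K36M, and 5 of the 7 fell while 1 rose.

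The 2 mutants were compared directly in marrow as well. Of the 10 members, 5 were higher in K9M than in K36M, where 53.8% of all genes were called and 27.8% were called higher in K9M. They were H2-Oa (2.24 ± 0.30), H2-Ob (1.84 ± 0.26), H2-Ab1 (1.02 ± 0.19), H2-DMb2 (1.0 ± 0.30) and H2-DMa (0.76 ± 0.10). H2-Aa (0.21 ± 0.24), H2-Eb1 (0.56 ± 0.42), Cd74 (0.02 ± 0.26), Ciita (0.47 ± 0.32) and H2-DMb1 (0.36 ± 0.16) did not pass. The sign of Cd74 changed with the scaling. In a fit of all 18 libraries 2 of the 5 were called.

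In bone marrow the 2 I-A chains stood in another proportion in the mutant libraries than in the WT ones. H2-Ab1 made up 51% (exact Clopper-Pearson 95% interval 48.2% to 53.8%) and 52.6% (50.2% to 54.9%) of the counts of H2-Ab1 and H2-Aa in the WT marrow libraries. In K9M marrow it made up 81.0% (76.7% to 84.8%) and 81.0% (76.6% to 84.8%), and in K36M marrow 67.9% (61.6% to 73.8%) and 74.1% (67.2% to 80.2%). The WT intervals of marrow overlap none of the mutant ones, but they cover counting error only and not the spread between mice. Intestine showed no such separation, with 60.3% and 57.7% in WT, 59.5% and 70.7% in K9M and 56.1% and 64.2% in K36M. Testes libraries stood at 47.9% and 57.5% in WT, 69.8% and 65.7% in K9M and 67.5% and 78.1% in K36M. Some WT and mutant intervals overlapped there, such as WT.1477 (50.6% to 64.2%) and K9M mouse 1519 (58.2% to 72.7%). These shares are a description, and the files hold no allele counts, so reads of C57B6 and 129 alleles cannot be told apart.

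**Figure D2:**
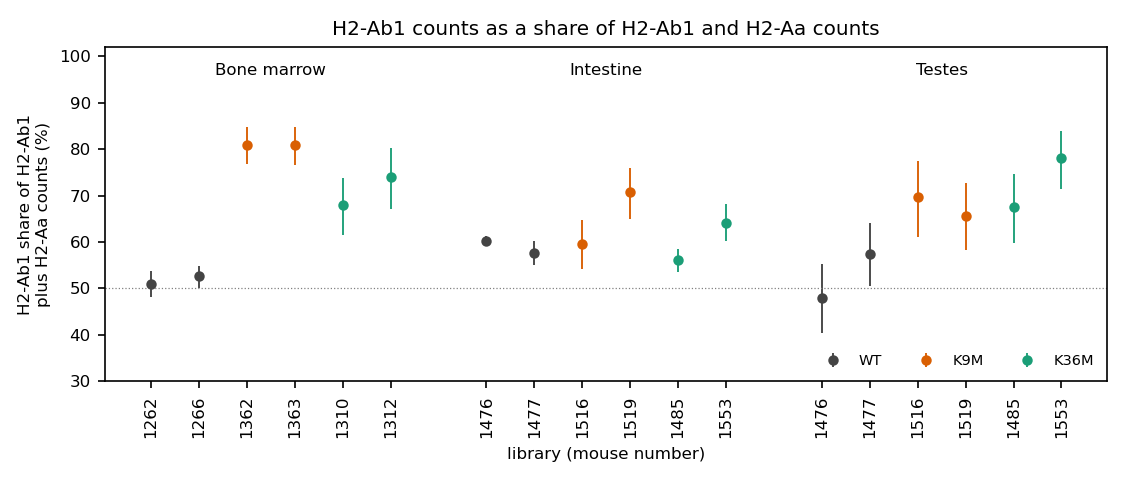
H2-Ab1 counts as a percentage of H2-Ab1 plus H2-Aa counts in each of the 18 libraries, by mouse number, with exact Clopper-Pearson 95% intervals for counting error only. In bone marrow the 2 WT libraries sit at 51% and 52.6% and both K9M libraries at 81.0%.

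The other genes of the chromosome 17 cluster are interleaved with the members. Brd2, a bromodomain protein, the peptide transporters Tap1 and Tap2 and the immunoproteasome subunit Psmb8 lie between H2-Oa and H2-Ob. In K9M marrow 0 of these 4 passed edgeR's test (1 at an unadjusted p under 0.05, Tap2 at 0.28 ± 0.10), with log2 values of 0.12 ± 0.06 for Brd2, -0.05 ± 0.13 for Tap1 and 0.12 ± 0.11 for Psmb8. Among 15 tested genes on both sides of the cluster, 0 passed either (1 at an unadjusted p under 0.05). In K36M marrow Psmb8 fell (-0.52 ± 0.11) and Brd2 rose (0.19 ± 0.06). Beside the cluster 5 genes rose and 4 fell of 15, where 48.0% of all genes were called.

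The falls in K9M marrow thus comprised 3 adjacent genes of chromosome 17 (H2-Ab1, H2-Aa and H2-Eb1), Ciita on chromosome 16 and Cd74 on chromosome 18. The class I gene H2-K1, outside the class II cluster on the same chromosome, had a log2 value of -0.09 ± 0.10 in K9M. H2-Ea-ps, the E alpha gene that is known not to be transcribed in mice of the b haplotype such as C57BL/6, had no count in any marrow library. The sum of H2-Aa, H2-Ab1, H2-Eb1 and Cd74 CPM divided by Ciita CPM was 26.1 and 25.3 in WT, 23.4 and 21.4 in K9M and 24.6 and 19.9 in K36M marrow. The ratio was not as even in the other tissues. In intestine it was 54.78 and 107.1 in WT, 34.05 and 30.94 in K9M and 371.1 and 84.35 in K36M. Testes gave 93.5 and 85.2, 31.57 and 34.9, and 126.5 and 96, on 2 to 10 counts of Ciita per library. Whether strain alleles linked to a locus on chromosome 17 move with these genes was not tested, since the counts carry no genotype.

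**Figure D3:**
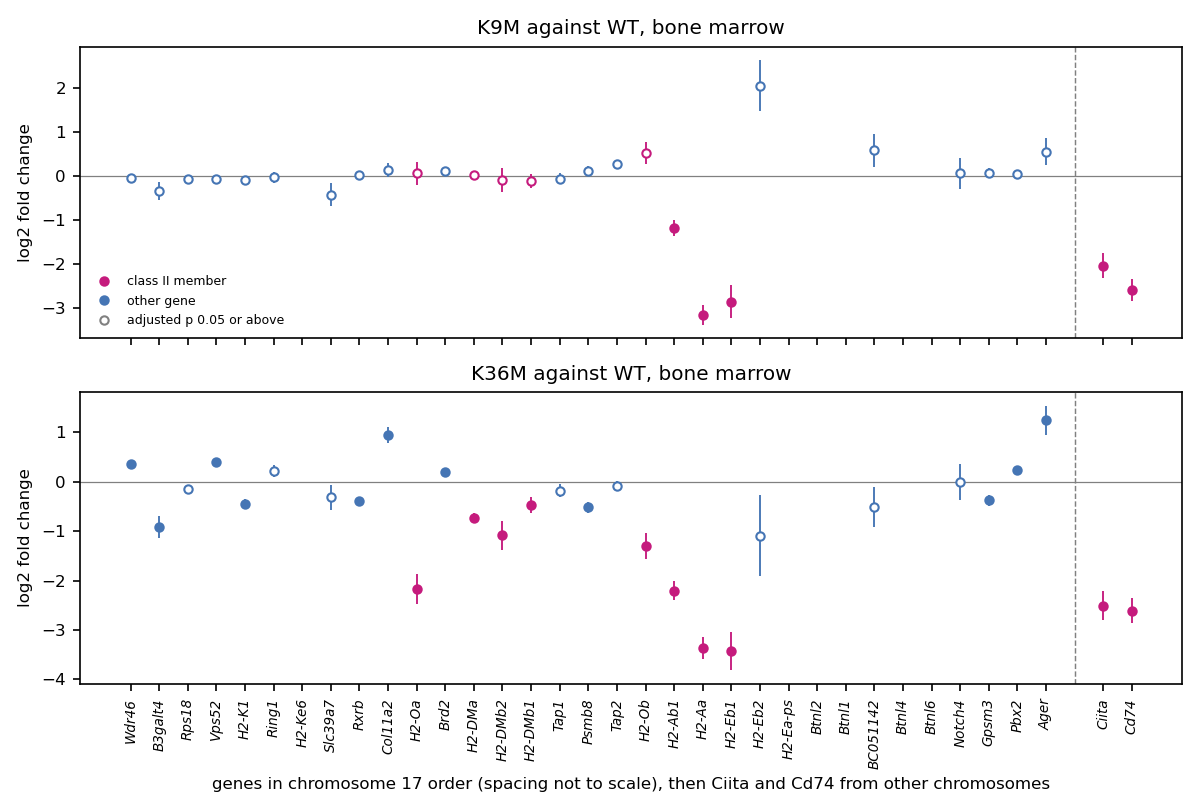
Log2 fold change ± SE against WT in bone marrow (upper panel K9M, lower panel K36M) for genes in chromosome 17 order, equally spaced, followed by Ciita and Cd74. Filled points passed the test, class II members are magenta, other genes are blue, and genes without a point were not tested. In K9M the filled points are H2-Ab1, H2-Aa, H2-Eb1, Ciita and Cd74.

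Factors upstream of the pathway were described by lists of known genes. The K36M marrow counts of this and the other lists stand beside 48.0% of all genes called, 23.5% higher and 24.6% lower. Of the 7 genes for RFX, NF-Y and CREB subunits that seat Ciita on promoters, 0 passed edgeR's test in K9M marrow and 0 had an unadjusted p under 0.05, with a median log2 value of 0.02. In K36M marrow 2 rose and 2 fell. The subunit gene Rfx5 fell by 0.63 ± 0.09 and Creb1 fell by 0.29 ± 0.07, while Nfyb rose by 0.53 ± 0.08. Of 8 tested genes on the interferon gamma route to Ciita (receptor and kinase genes among them), 0 passed in K9M marrow (1 at an unadjusted p under 0.05), and in K36M 2 fell and 1 rose. Irf1, which acts at the inducible Ciita promoter, was at 0.10 ± 0.18 in K9M and fell by 1.37 ± 0.19 in K36M. The receptor chain Ifngr1 fell by 0.27 ± 0.08 and the feedback inhibitor Socs1 rose by 0.85 ± 0.26 in K36M.

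Genes outside the MHC that interferon gamma induces moved in K36M marrow. Of 10, 7 fell and 0 rose in K36M, with a median of -1.08 beside -0.02 over all genes, led by the GTPase gene Gbp2 (-1.98 ± 0.26), the chemokine Cxcl9 (-5.56 ± 0.88) and Irgm2 (-1.32 ± 0.28). In K9M marrow 0 of the 10 passed (2 at an unadjusted p under 0.05), with a median of -0.39. Of 14 class I pathway genes, 8 fell and 1 rose in K36M marrow, among them Psmb10 (-0.66 ± 0.10), the chaperone Pdia3 (-0.43 ± 0.08) and Nlrc5, the class I counterpart of Ciita (-0.70 ± 0.14). In K9M 0 of the 14 passed (1 at an unadjusted p under 0.05).

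Downstream, the proteases and other genes that supply class II peptides and turn the molecules over did not move as a block. Ifi30, the endosomal thiol reductase, fell in K9M marrow (-1.07 ± 0.09, adjusted p = 0.00228), the 1 gene called of 9, and rose in K36M (1.06 ± 0.09). In K36M marrow 4 of the 9 rose and 2 fell, with Ctsd at 0.81 ± 0.06 and Lgmn, which trims Cd74, at 1.25 ± 0.20. Of 4 tested co-stimulation genes only Cd86 passed, in K36M (-2.04 ± 0.50), and 0 passed in K9M (1 at an unadjusted p under 0.05).

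Markers of antigen-presenting cells were measured beside these falls. The summed level of 10 B cell genes in marrow was 717.8 and 1348 CPM for WT, 1232 and 673.8 in K9M and 879 and 550.3 in K36M. Conventional dendritic cell genes (10) gave sums of 313.9 and 285.2 CPM for WT, 330.2 and 414.2 in K9M and 218.4 and 228.9 in K36M, and 8 plasmacytoid ones to 620 and 454.3, 582 and 648.1, and 209.5 and 209.3. For 12 macrophage and monocyte genes the sums were 763.6 and 552.9, 660.8 and 996, and 242.5 and 268.5 CPM. In K9M no gene of these 4 lists passed the test, with 5 of 10 B cell and 7 of 9 tested dendritic cell genes at an unadjusted p under 0.05. The median log2 value was 0.81 for the B cell genes and -0.60 for the dendritic ones. The conventional dendritic sums were higher in both K9M libraries than in both WT libraries, opposite in direction to that median. A sum is weighted to the most abundant genes of its list. These sums therefore do not show that the content of such cells was kept.

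In K36M marrow 5 of 9 dendritic genes fell and 1 rose, 5 of 8 plasmacytoid genes fell and 1 rose, 4 of 11 macrophage genes fell and 1 rose, and 2 of 10 B cell genes fell. Of all genes tested there 48.0% were called, 24.6% lower and 23.5% higher. The called shares of the macrophage and B cell genes were not above that 48.0%. Clec9a, a receptor of cross-presenting dendritic cells, fell by 4.75 ± 0.32, Irf8, a factor of dendritic and monocytic cells, fell by 2.18 ± 0.19, the lysozyme gene Lyz2 fell by 1.54 ± 0.14 and the B cell gene Ms4a1 fell by 3.72 ± 0.81. No defining marker of these 4 lists was at 0 in the WT or K9M libraries. The Lin- sort is meant to remove mature blood cells, and the summed level of 6 mature lineage genes was 425 and 346.7 CPM for WT, 405.1 and 439.9 in K9M and 247.2 and 226.5 in K36M, where 2 of 5 tested fell. The part of such cells in the class II falls was not tested.

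In intestine every tested member was lowest in K9M or in K36M, but few passed the test, and the 2 WT libraries lay far apart. In K9M 0 of 7 tested members passed edgeR's test, where 0.211% of all genes were called and 0.0632% were called lower, although all 7 had an unadjusted p under 0.05, DESeq2 called 7 and limma-voom 0. Without WT.1477 edgeR called 1. H2-DMb2, H2-Oa and H2-Ob did not reach the count filter, with at most 23 counts in a library. Cd74 was at 344.6 (WT.1476) and 107.9 CPM (WT.1477) and at 12.3 and 10.3 CPM in K9M (-4.32 ± 0.67, adjusted p = 0.0938). H2-Aa went from 128.7 and 38.9 CPM to 7.20 and 4.74 (-3.81 ± 0.83, adjusted p = 0.19). Neither gene's groups overlapped.

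H2-Ab1 was at 195.2 and 53.1 CPM in WT intestine and 10.6 and 11.4 in K9M (-3.50 ± 0.73), and H2-Eb1 at 126 and 39.8 against 6.94 and 5.32 CPM (-3.76 ± 0.56). Ciita, with 299 and 33 counts in WT and 21 and 18 in K9M, was at 14.5 and 2.24 against 1.09 and 1.03 CPM (-2.98 ± 0.86). The editors took the same direction here, with H2-DMa at 21.5 and 8.68 against 1.30 and 1.83 CPM (-3.27 ± 0.51) and H2-DMb1 at 15.6 and 4.27 against 0.259 and 0.572 CPM (-4.57 ± 0.78). Both K9M libraries lay below both WT libraries for all 7 members, an order that 23.7% of all tested genes also showed. Without WT.1476 the log2 values of the 7 ran from -3.35 ± 0.63 (H2-DMb1) to -1.07 ± 0.61 (Ciita), with adjusted p from 0.177 (H2-Eb1) upward.

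In K36M intestine 3 of 7 members fell, where 23.3% of all genes were called and 11.7% were called lower. H2-Eb1 went from 126 and 39.8 CPM to 14.7 and 11.2 (-2.68 ± 0.53, adjusted p = 0.017), Ciita from 14.5 and 2.24 to 0.597 and 1.03 CPM (-3.34 ± 0.89, adjusted p = 0.0406) and H2-DMa from 21.5 and 8.68 to 5.23 and 3.88 CPM (-1.73 ± 0.47, adjusted p = 0.0428). Without WT.1476 only H2-Eb1 held (-1.64 ± 0.30, adjusted p = 0.0393), while Ciita was at -1.45 ± 0.62 and H2-DMa at -0.95 ± 0.44. The count was also 1 without either K9M mouse and 0 without either K36M mouse.

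The other 4 members of K36M intestine did not pass, and the K36M libraries differed between themselves as well. H2-Aa was at 50.8 CPM in K36M mouse 1485 and 13.1 in mouse 1553 (-1.40 ± 0.74), and H2-Ab1 at 64.9 and 23.4 CPM (-1.50 ± 0.67), so mouse 1485 exceeded WT.1477 in both. Cd74 was at 91.3 and 39.4 CPM (-1.79 ± 0.60, adjusted p = 0.0742) and H2-DMb1 at 3.51 and 2.43 CPM (-1.75 ± 0.66). Without WT.1476 the log2 values were much smaller, at -0.31 ± 0.73 for H2-Aa, -0.29 ± 0.55 for H2-Ab1, -0.74 ± 0.46 for Cd74 and -0.55 ± 0.59 for H2-DMb1. Between the mutants, Cd74 (-2.52 ± 0.63) and H2-DMb1 (-2.83 ± 0.77) were lower in K9M than in K36M, 2 of 7 where 25.1% of all genes were called (12.9% higher, 12.2% lower). The count was 0 when any 1 mouse of K9M or K36M was left out and 5 when either WT mouse was.

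Markers of antigen-presenting cells were compared between the 2 WT intestine libraries too. WT.1476 against WT.1477 had 4.22 against 5.90 CPM over 10 B cell genes, 6.21 against 5.63 over 10 dendritic cell genes and 208.6 against 261.7 over 12 macrophage genes, with 2 and 5 of the dendritic markers at 0. The 8 epithelial genes summed to 24340 against 28870 CPM. In K9M intestine the dendritic sums were 4.35 and 4.97 CPM and the macrophage sums 209.6 and 182.9, and in K36M 5.0 and 1.88, and 329.2 and 180. The B cell sums were 13.2 (mouse 1516) and 5.26 CPM (mouse 1519) in K9M and 5.97 and 5.28 in K36M. In K36M 6 of 6 tested T cell genes fell, led by Cd3e (-3.17 ± 0.30), Cd3g (-3.29 ± 0.38) and Cd8a (-2.29 ± 0.27). T cells are a known source of interferon gamma, and their summed markers were 79.2 and 101.3 CPM in WT, 61.9 and 87.4 in K9M and 17.1 and 12.7 in K36M. Other markers were called in K36M intestine too, where 23.3% of all genes were called (11.7% higher, 11.7% lower). Both tested genes of group 3 innate lymphoid cells rose (2 of 2), with sums of 45.5 and 42.5 CPM in WT and 320.1 and 167.7 in K36M, and 2 of 9 macrophage genes rose. Of the 8 epithelial genes 2 fell, with sums of 20940 and 17680 CPM in K36M. Their part in the class II values was not tested.

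Related genes in intestine gave no calls in K9M. Of 8 genes on the interferon gamma route 0 passed in K9M (0 at an unadjusted p under 0.05), with a median of 0.07, and of 9 inducible genes outside the MHC 0 passed (3 at an unadjusted p under 0.05), with a median of -1.05. The 7 transcription factor genes gave 0 calls (1 at an unadjusted p under 0.05). Between and beside the chromosome 17 members 0 of 4 and 0 of 18 genes passed (1 and 1 at an unadjusted p under 0.05). In K36M intestine Rfxank (-1.0 ± 0.25) and Nfya (-0.76 ± 0.19) fell, as did the kinase gene Jak2 (-0.68 ± 0.18), and of the inducible genes 3 of 9 fell, Cxcl9 (-2.81 ± 0.60), Igtp (-2.04 ± 0.53) and Irgm2 (-1.80 ± 0.51). Class I genes gave 4 falls of 14, with Psmb8 (-1.18 ± 0.17), Psmb10 (-1.54 ± 0.31) and B2m (-1.05 ± 0.23) foremost. Of all genes in K36M intestine 23.3% were called, 11.7% lower. Ctsl, a cathepsin that degrades Cd74 in some epithelia, rose by 1.81 ± 0.20, and the co-stimulation gene Icosl rose by 1.25 ± 0.32.

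**Figure D4:**
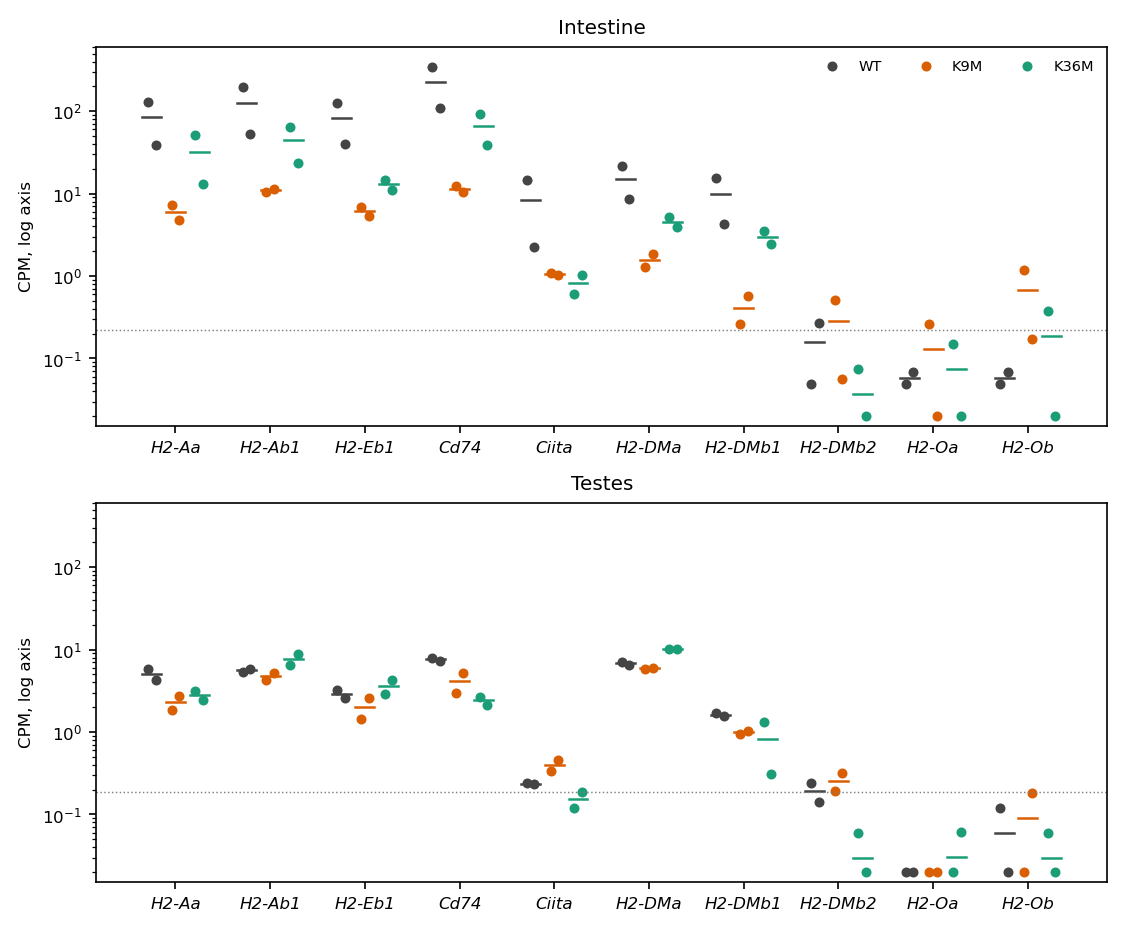
TMM-scaled CPM (log axis) of the 10 genes in intestine (upper panel) and testes (lower panel), with 2 libraries per genotype as points and group means as bars; values below 0.02 are drawn at 0.02, and the dotted line is the highest 3-count floor of the tissue. The 2 WT intestine libraries lie apart in every gene from H2-Aa to H2-DMb1, and all 7 of these genes lie lower in K9M.

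In testes the pathway was sparse and the members moved in different directions. In K9M 0 of 6 tested members passed edgeR's test, where 0.0678% of all genes were called and 0.0418% were called lower. H2-Aa was at 5.88 and 4.27 CPM in WT and 1.87 and 2.72 in K9M (-1.14 ± 0.29), and Cd74 at 7.92 and 7.36 against 2.97 and 5.25 CPM (-0.89 ± 0.28). Both had an unadjusted p under 0.05, 0.00556 and 0.0166, and an adjusted p of 1.0. The other 4 ran from -0.69 ± 0.50 (H2-DMb1) to -0.18 ± 0.15 (H2-DMa). DESeq2 and limma-voom each called 0 of the 6, and edgeR called 1 without either K36M mouse.

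In K36M testes Cd74 and H2-Aa fell and H2-DMa rose, 3 of 6 where 49.5% of all genes were called (25.7% higher and 23.8% lower), so the share is near the background. Cd74 went from 7.92 and 7.36 CPM to 2.70 and 2.16 (-1.65 ± 0.31, adjusted p = 0.00695), and H2-Aa from 5.88 and 4.27 to 3.12 and 2.47 CPM (-0.85 ± 0.29, adjusted p = 0.0447). H2-DMa went from 7.02 and 6.57 to 10.2 and 10.1 CPM (0.58 ± 0.15, adjusted p = 0.0194). In these 3 genes the groups did not overlap, which was also so for 79.2% of all tested genes. H2-Ab1 stood at 5.4 and 5.77 CPM in WT and 6.48 and 8.82 in K36M (0.45 ± 0.21, adjusted p = 0.12), H2-Eb1 gave 0.31 ± 0.35 and H2-DMb1 -0.97 ± 0.54. Leaving out WT.1476 gave 0 calls, leaving out WT.1477 or either K9M mouse gave 1, and leaving out K36M mouse 1485 gave 5.

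The counts of Cd74 therefore moved apart from those of H2-Ab1 in K36M testes. Per count of H2-Ab1 there were 1.47 and 1.28 counts of Cd74 in WT, 0.689 and 1.01 in K9M and 0.417 and 0.245 in K36M. Between the mutants, H2-Ab1 (-0.68 ± 0.22) and H2-DMa (-0.76 ± 0.15) were lower in K9M than in K36M, 2 of 6 where 49.2% were called (23.9% higher, 25.4% lower). The count was 0 without either K9M mouse, 1 without either WT mouse or K36M mouse 1553, and 5 without K36M mouse 1485. Ciita had 2 to 10 counts per testes library and was not tested there.

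Marker genes of other testis cells were called in the K36M group too, where 25.7% of all genes were called higher and 23.8% lower. Of 5 Leydig cell genes 4 fell, led by Cyp17a1 (-5.02 ± 0.72), Cyp11a1 (-3.84 ± 0.53) and Star (-1.90 ± 0.50), and 4 of 4 Sertoli cell genes rose, with Wt1 at 1.60 ± 0.16. Macrophage genes gave 6 rises and 2 falls of 11, with sums of 104.5 and 110.1 CPM in WT, 107 and 111.6 in K9M and 148.8 and 175.1 in K36M. Mertk rose by 1.39 ± 0.15 and Cx3cr1 fell by 2.81 ± 0.37. The dendritic cell sums were 32.2 and 32.8, 30.1 and 29.2, and 39.2 and 37.4 CPM. Their part in the class II values was not tested.

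Related lists in K36M testes were read against the 25.7% of all genes called higher and 23.8% called lower. Of 9 genes of peptide supply and turnover 7 rose and 0 fell, at a median of 0.81 beside 0.02 over all genes, with Lgmn at 2.35 ± 0.17, Ctsl at 1.66 ± 0.18 and Ctsd at 0.88 ± 0.15. On the interferon gamma route 4 of 8 rose and 1 fell, including Ifngr2 (1.73 ± 0.13), Jak1 (1.13 ± 0.12) and Ifngr1 (1.03 ± 0.12). The factor genes Rfx5 (-1.24 ± 0.15) and Rfxap (-1.15 ± 0.19) fell, 2 of 7, and the chemokine Cxcl10 (-3.05 ± 0.48) was the 1 inducible gene called of 9. Class I genes gave 5 rises and 1 fall of 14, with Tapbp at 0.61 ± 0.12. In K9M testes 0 genes of these lists passed. On chromosome 17 Brd2 fell (-0.84 ± 0.21), the 1 gene called of 4 between the members.

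**Figure D5:**
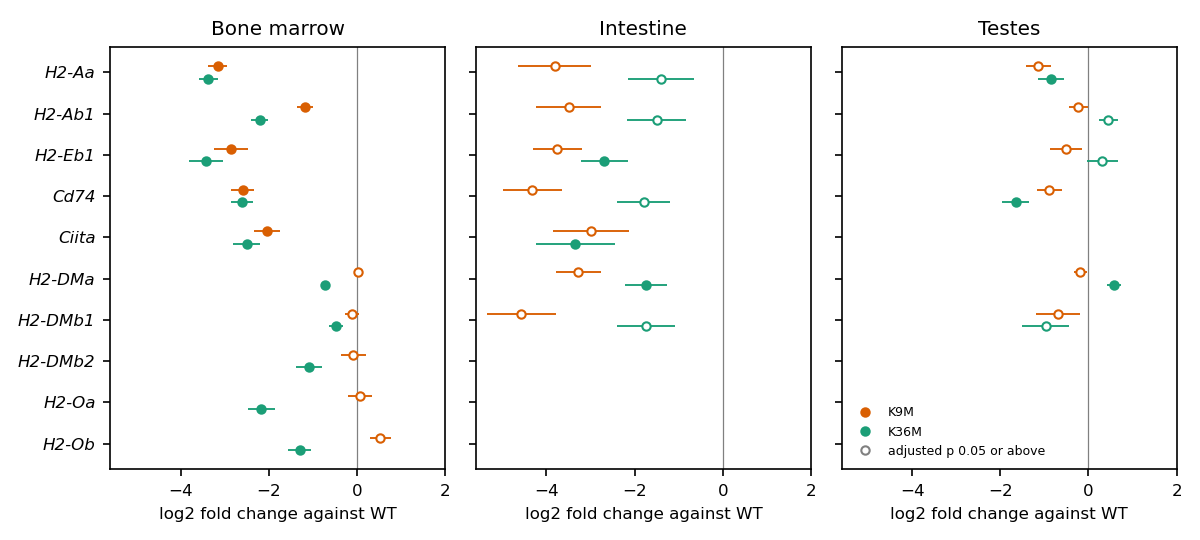
Log2 fold change ± SE against WT of each class II gene in K9M (orange) and K36M (green) for the 3 tissues. Filled points passed an adjusted p of 0.05; members without a point did not reach the count filter. The DM genes lie near 0 in K9M marrow and at -3.27 and -4.57 in K9M intestine, where no member passed.

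Whether an effect differed between tissues was tested as an interaction over all 18 libraries. The K9M effect on H2-DMa and H2-DMb1 was less negative in marrow than in intestine, with differences of 3.38 ± 0.52 (adjusted p = 0.0118) and 4.57 ± 0.88 (adjusted p = 0.0405) on the log2 scale, 2 of 10 members where 0.452% of all genes were called. H2-Ab1 (2.40 ± 0.78, adjusted p = 0.31) and the remaining members did not pass. The count was 0 without marrow WT.1266 or intestine K9M mouse 1516, 4 without intestine WT.1477 and 1 without any other library of these groups. Between marrow and testes 0 of 10 passed by edgeR (3 at an unadjusted p under 0.05, 0 by DESeq2 and 0 by limma-voom), where 0.132% of all genes were called (0.0565% higher, 0.0753% lower).

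For intestine against testes, which come from the same mice, 1 of 10 members passed, where 0.193% of all genes were called (0.0894% lower): the K9M effect on H2-DMa was lower in intestine by -3.19 ± 0.54 (adjusted p = 0.0274). With the mouse as a replicate block this call was lost (0 of 10). It was 7 without WT.1477 of intestine and 0 without K9M mouse 1516 or 1519 in intestine or any testes mouse of these groups.

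The K36M effect on H2-Ab1 (-2.59 ± 0.83, adjusted p = 0.0372) and H2-Eb1 (-3.67 ± 0.82, adjusted p = 0.00627) was lower in marrow than in testes, 2 of 10 where 24.8% of all genes were called, and 1 when any 1 library of these groups was left out. For H2-Eb1 (-3.13 ± 0.78, adjusted p = 0.0108) and H2-DMa (-2.44 ± 0.51, adjusted p = 0.00346) it was lower in intestine than in testes, 2 of 10 where 26.0% were called, and 2 again with the mouse as a replicate block. That count was 4 without intestine WT.1477 and 1 without testes K36M mouse 1553. In both of these contrasts with testes the share of members called was not above that of all genes. Between marrow and intestine 0 of 10 members passed for K36M by edgeR (1 at an unadjusted p under 0.05, 0 by DESeq2 and 0 by limma-voom), where 17.2% of all genes were called (9.81% higher, 7.44% lower), while 3 members were called lower in marrow without WT.1476 of intestine and 3 were called higher without WT.1477.

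Across all 18 libraries, with the mean of each tissue removed, log2 CPM of each member was set against the mean of H2-Aa, H2-Ab1, H2-Eb1 and Cd74. Pearson's r was 0.79 for Ciita, 0.80 for H2-DMa, 0.75 for H2-DMb1, 0.29 for H2-Oa, 0.05 for H2-DMb2 and -0.13 for H2-Ob, as a description over libraries that share depth and tissue mix. Within tissues, over 6 libraries each, it differed: Ciita was at 0.998 in marrow, 0.739 in intestine and -0.208 in testes, and H2-DMa at 0.541, 0.978 and 0.116. Of 14854 protein-coding genes outside the set with a mean of at least 1 CPM, those most alike included Ggn (r = 0.82), Usp35 (0.81), Lpcat2b (0.80), Prss30 (0.79), Fry (0.78), Catsper1 (0.77) and Pi16 (0.77). These 7 were higher in the mean of WT than of K9M intestine. Ggn and Catsper1, known testis genes, had means of 446.6 and 164.4 CPM in WT testes against 1.94 and 0.524 in WT intestine, where WT.1476 is the library with germ cell transcripts. Lpcat2b likewise had a mean of 263.1 CPM in WT testes against 1.49 in WT intestine.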

How the data were processed

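The deposited files hold whole-number counts per gene, which the authors made; the submitters' processing notes name STAR, HTSeq and the mm9 build. Versions and the strand setting are not given in the sources used here. The 5 entries that name no gene were left out. Of all counts in a file, these entries included, reads with no feature made up 9.89% to 26.0% and reads not unique 15.3% to 29.1%. Gene symbols, gene order and exon lengths came from GENCODE M21, which gave 32897 of 37620 IDs a symbol.

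Counts were tested in R 4.3.3 with edgeR 4.0.16 (TMM, filterByExpr, robust quasi-likelihood fit, Benjamini-Hochberg over all genes), per tissue for the genotypes and over all 18 libraries across tissues. With 2 different mice per group, p-values of the fits per tissue measure the spread between mice. The main fit over all 18 libraries had no term for the mouse. Intestine and testes of the same mouse entered it as separate libraries. The code was tested on simulated data. Alternatives were DESeq2 1.42.0, limma-voom (limma 3.58.1), other scalings, filters, thresholds and sets of libraries, and leaving out each library.

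All 10 members are named, and of each list the called genes with the 3 smallest adjusted p. A gene that this rule would name is not reported here. The members and lists were chosen with earlier results of these data known. The mouse number pairs intestine with testes, since 6 mice gave both. Deviations of the same mouse correlated at 0.0326 (WT), 0.0729 (K9M) and -0.0129 (K36M) over 20253 genes.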

Additional observations from a re-analysis of the deposited data

Results flagged for a closer look

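In 7 cases a mutant's effect on a class II gene differed between 2 tissues by edgeR's interaction test over all 18 libraries. For K9M, the marrow effect minus the intestine effect was 3.38 ± 0.52 on the log2 scale for H2-DMa (adjusted p = 0.0118) and 4.57 ± 0.88 for H2-DMb1 (adjusted p = 0.0405). The K9M effect on H2-DMa in intestine minus that in testes was -3.19 ± 0.54 (adjusted p = 0.0274), a call that was lost with the mouse as a replicate block. For K36M, marrow minus testes gave -2.59 ± 0.83 for H2-Ab1 (adjusted p = 0.0372) and -3.67 ± 0.82 for H2-Eb1 (adjusted p = 0.00627). K36M in intestine minus testes gave -3.13 ± 0.78 for H2-Eb1 (adjusted p = 0.0108) and -2.44 ± 0.51 for H2-DMa (adjusted p = 0.00346). For K36M these are 2 of 10 members each, where 24.8% (marrow against testes) and 26.0% (intestine against testes) of all genes were called. The K36M shares are thus not above the background. For K9M they are 2 of 10 and 1 of 10, where 0.452% and 0.193% of all genes were called. All comparisons with intestine include the WT.1476 library.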

How the results depend on the processing

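With 2 mice per group, single libraries moved many counts of called members, and low counts limited H2-DMb2, H2-Oa and H2-Ob outside marrow and Ciita in testes. No strain allele can be read from these files. The cause of each change below was not tested. Of 2015 single-member values under other settings 33 changed direction, in 21 results, of which 1 had been called (Ciita, WT marrow against WT intestine).

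At an adjusted p of 0.01 the called members went from 5 to 1 in K9M marrow, from 3 to 0 in K36M intestine, from 2 to 0 in intestine K9M against K36M, from 3 to 1 in K36M testes and from 2 to 1 in testes K9M against K36M. For the effects between tissues they went from 2 to 1 (K36M, marrow against testes), 2 to 1 (K36M, intestine against testes), 2 to 0 (K9M, marrow against intestine) and 1 to 0 (K9M, intestine against testes). With all 18 libraries in 1 fit the counts were 6 (K36M marrow), 1 (K9M marrow), 2 (marrow K9M against K36M), 6 (K36M intestine), 7 (K9M intestine), 5 (intestine K9M against K36M), 0 (K36M testes) and 0 (testes K9M against K36M). Without a filter on low counts they were 7 for each mutant against WT in intestine, 6 for intestine K9M against K36M and 1 for the K36M effect in marrow against testes.

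DESeq2 called 7 in K9M intestine, 5 in intestine K9M against K36M, 1 in testes K9M against K36M, 4 for the K36M effect in marrow against testes and 5 for the K9M effect in intestine against testes. With limma-voom the counts were 1 in K36M intestine, 1 in intestine K9M against K36M, 0 for the K36M effect in marrow against testes, 1 for K36M in intestine against testes and 0 for K9M in intestine against testes. From the 4 libraries of the 2 genotypes alone they were 1 in K36M intestine, 1 in K9M testes and 1 in testes K9M against K36M, which also had 1 with library size alone. From the 12 libraries of the 2 tissues they were 4 (K36M, marrow against testes), 1 (K9M, marrow against intestine) and 0 (K9M, intestine against testes). With the mouse as a replicate block the last was 0 as well, and the paired counts of the other 2 comparisons of intestine and testes stayed at 2 (K36M) and 7 (WT).

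Leaving out each library in turn gave 1 to 5 called members in K9M marrow, 0 to 4 in K36M intestine, 0 to 5 in intestine K9M against K36M, 0 to 1 in K9M intestine, 0 to 5 in K36M testes, 0 to 5 in testes K9M against K36M and 0 to 1 in K9M testes. For the K36M effect it gave 0 to 3 in marrow against intestine, 1 to 1 in marrow against testes and 1 to 4 in intestine against testes, and for the K9M effect 0 to 4 in marrow against intestine and 0 to 7 in intestine against testes.

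Cd74 in marrow K9M against K36M was at 0.02 and changed sign to -0.01 with relative log expression factors, -0.005 with DESeq2, -0.021 with limma-voom and -0.03 with all 18 libraries. Leaving out single libraries gave it -0.28 to 0.28, and H2-Aa in that comparison -0.03 to 0.47. In K9M marrow the ranges were -0.087 to 0.151 (H2-DMa), -0.278 to 0.068 (H2-DMb1), -0.229 to 0.075 (H2-DMb2) and -0.14 to 0.30 (H2-Oa). In testes they were -0.028 to 0.532 (H2-Eb1, K36M) and -0.39 to 1.71 (H2-DMb1, K9M against K36M). For WT marrow against WT intestine they were -2.25 to 0.69 (Ciita) and -0.60 to 1.51 (H2-DMb1). The K36M effect in marrow against intestine ranged over -1.85 to 0.15 (Cd74), -1.02 to 1.92 (Ciita), -1.90 to 0.45 (H2-Ab1) and -1.76 to 0.15 (H2-Eb1), and in marrow against testes over -0.15 to 1.94 (H2-DMb1). In intestine against testes it ranged over -1.06 to 0.94 (Cd74), -2.02 to 0.58 (H2-Aa) and -1.67 to 0.45 (H2-DMb1). The K9M effect in marrow against intestine ranged over -1.05 to 1.88 (Ciita), -0.56 to 1.41 (H2-Aa) and -0.26 to 1.65 (H2-Eb1).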

Other observations

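H2-Eb2, the neighbour after H2-Eb1 on chromosome 17, had 3 and 7 counts in WT marrow, 16 and 22 in K9M and 1 and 3 in K36M. Its log2 value in K9M marrow was 2.06 ± 0.58 (edgeR adjusted p = 0.182), opposite in sign to its neighbour H2-Eb1 at -2.86 ± 0.38. Its promoter also held the motif pair, starting at -129 with 22 bases between the motifs. H2-Eb2 was singled out after its values were seen.

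Counts of Cd74 per count of H2-Ab1 were 1.86 and 1.87 in WT marrow, 0.769 and 0.628 in K9M marrow and 1.53 and 1.29 in K36M marrow.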
